A study of Mus musculus with 9 samples.

Results

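The glutathione S-transferases of the intestinal epithelium were followed in organoids through 10 genes, *Gsta1*, *Gsta2*, *Gsta3*, *Gsta4*, *Gstm1*, *Gstm2*, *Gstm3*, *Gstp1*, *Gstt1* and *Mgst1*, out of 54838 mouse genes with a deposited value. The genes were selected on their FPKM with the RIPK1 inhibitor Nec-1 and with DMSO, several of them being more abundant with Nec-1 both with and without 4-OHT, and were matched by symbol to the Ensembl identifiers of the files. Their differences between Nec-1 and DMSO are therefore a description and carry no test. The remaining glutathione transferase genes are described beside them, 19 of which were matched.

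Glutathione S-transferases couple the tripeptide glutathione to reactive, fat-soluble compounds and make them water soluble. The alpha (*Gsta*), mu (*Gstm*), pi (*Gstp*) and theta (*Gstt*) classes are cytosolic enzymes, whereas MGST1 sits in membranes and also reduces lipid peroxides. Absorptive cells of the gut meet food toxins first and are rich in these enzymes. Their genes are known targets of NRF2, a factor activated by oxidants and electrophiles, and several respond to the xenobiotic receptors CAR and PXR. The conjugates leave the cell through ABC transporters and are trimmed outside it by gamma-glutamyl transferase and peptidases.

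All organoids were grown from intestine and carried *Vil-CreERT2* and *Mettl3* fl/fl on a C57BL/6 background. In this model the villin promoter restricts a tamoxifen-inducible Cre to the intestinal epithelium, and Cre removes a floxed part of *Mettl3*, which encodes the catalytic subunit of the m6A RNA methyltransferase. Organoids received 4-hydroxytamoxifen (4-OHT), which switches on this Cre, or its solvent ethanol (EtOH), and then Nec-1 (necrostatin-1) or its solvent DMSO. RNA-seq comprised 7 libraries, 2 for each group except 4-OHT Nec-1, which has 1, and the EtOH groups carry the same floxed alleles and transgene as the 4-OHT groups. Values are FPKM, which are scaled for transcript length and for the mapped fragments of a library and can be compared between genes. Differences are given as log2(FPKM + 1), which understates changes of genes near 1 FPKM. The labels do not say whether replicate libraries came from separate cultures, so that p-values measure the spread between these libraries only.

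Some properties of the libraries bear on every value below. *Mettl3* itself was at 2.70 and 2.71 FPKM in EtOH DMSO and at 3.72 and 4.14 in 4-OHT DMSO. With Nec-1 it was at 2.41 and 2.47 FPKM in the EtOH libraries and at 3.36 in the 4-OHT library. It was thus not lower in the libraries labelled 4-OHT, and directions drawn from them rest on the labels. FPKM covers the whole gene and cannot show the loss of a single exon. Of 7 stem cell markers, 3 passed the threshold as lower in 4-OHT DMSO and 1 as higher, against 16.7% and 24.5% of all tested genes. *Lgr5* was at 1.26 and 1.52 FPKM in EtOH DMSO against 0.565 and 0.468 in 4-OHT DMSO (limma adjusted p = 0.0128). *Smoc2* was at 12.1 and 11.8 against 4.13 and 4.40 FPKM (limma adjusted p = 0.000573). *Cd44* went the other way, with a log2 difference of 1.98 (limma adjusted p = 0.000321). Whether these markers bear on the labels was not tested. The 4-OHT DMSO libraries also differed from each other. Replicate 2 held 110.9 FPKM of 5 gastric genes in sum and replicate 1 held 7.21, against at most 1.36 in the other libraries. The levels of *Gsta2*, *Gm3776* and *Gstp2* differed between these replicates as well (below). In bulk RNA, fewer cells of a type and less RNA per cell cannot be told apart.

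Most members lie in gene clusters next to genes of the same class. On chromosome 9 of the mouse genome (GRCm38.p6), *Gsta4* (78191966 to 78209349), *Gsta1* (78230669 to 78242683), the predicted alpha genes *Gm3776* and *Gm10639*, and *Gsta2* (78331018 to 78347192) fall within 155 kb. *Gstm3* (107963696 to 107969174), *Gstm2* (107981702 to 107986420) and *Gstm1* (108012250 to 108017973) lie side by side on chromosome 3, among 7 *Gstm* genes within 149 kb. *Gstp1* is on chromosome 19 (4035411 to 4037912) next to *Gstp2* and *Gstp3*, and *Gstt1* is on chromosome 10 (75783813 to 75798584) among 4 theta genes. *Gsta3* on chromosome 1 (21240565 to 21265575) and *Mgst1* on chromosome 6 (138140527 to 138156755) stand apart from these clusters.

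RefSeq promoter windows of 300 bases (250 before and 50 after the start of transcription, GRCm38.p6) were found for 9 of the 10 members. The windows of *Gm3776* and *Gm10639* were identical at 97.7% of aligned positions, those of *Gsta1* and *Gm3776* at 90.7% and those of *Gsta1* and *Gsta2* at 75.3%. Those of *Gstp1* and *Gstp2* were identical at 77.1% and those of the mu genes *Gstm1*, *Gstm2*, *Gstm3* and *Gstm4* at 47.3% to 59.8%. The stretch around the start site is shown for the alpha cluster because 3 of its genes had the most similar windows among those compared and *Gsta2* was split between replicates. Capitals mark GCGTG, the core letters bound by the AhR, a receptor for aromatic compounds, which occur on either strand in 32.4% of all 32851 promoter windows.
Gsta1 (chr9:78230639-78230684, plus strand): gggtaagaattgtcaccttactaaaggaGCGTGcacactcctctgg
Gm3776 (chr9:78257112-78257157, plus strand): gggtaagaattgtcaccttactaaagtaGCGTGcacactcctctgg
Gm10639 (chr9:78289913-78289956, plus strand): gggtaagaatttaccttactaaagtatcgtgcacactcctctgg
Gsta2 (chr9:78347135-78347180, minus strand): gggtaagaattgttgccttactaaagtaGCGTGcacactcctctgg

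The same letters were present in the windows of *Gstm1* and *Gstp1*, so that 4 of the 9 members with a window held them. The longer form TNGCGTG, which includes GCGTG and occurs in 5.07% of all windows, was found in *Gsta2* alone among the members. TGACNNNGC, the core of the antioxidant response element bound by NRF2, was present in *Gsta3* and *Mgst1* and in 12.4% of all windows. TGAGTCA, a site of AP-1 factors that NRF2 complexes can share, was present in *Gstp1* and in 5.2% of all windows. These matches are a description of letters in a window, and binding was not measured. The stretches that hold them are given with the motif in capitals, on the strand of the gene (the match in *Mgst1* is to the opposite strand), and *Gstp1* has 1 stretch for each of its motifs.
Gsta3 (chr1:21240439-21240497, plus strand): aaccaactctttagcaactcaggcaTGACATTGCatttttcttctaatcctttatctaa
Mgst1 (chr6:138140446-138140504, plus strand): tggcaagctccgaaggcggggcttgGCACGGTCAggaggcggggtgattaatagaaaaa
Gstm1 (chr3:108018020-108018074, minus strand): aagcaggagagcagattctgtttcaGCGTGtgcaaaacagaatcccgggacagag
Gstp1 (chr19:4037955-4038011, minus strand): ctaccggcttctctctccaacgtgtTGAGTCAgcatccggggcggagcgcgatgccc
Gstp1 (chr19:4037896-4037950, minus strand): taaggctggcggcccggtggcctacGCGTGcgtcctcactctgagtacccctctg

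None of these motifs was found in the windows of *Gstm2*, *Gstm3* and *Gstt1*, which says only that the letters are not in these 300 bases. The 250 bases before the start of *Gstm3* are shown because this gene had the widest range between groups among the members.
Gstm3 (chr3:107969175-107969424, minus strand): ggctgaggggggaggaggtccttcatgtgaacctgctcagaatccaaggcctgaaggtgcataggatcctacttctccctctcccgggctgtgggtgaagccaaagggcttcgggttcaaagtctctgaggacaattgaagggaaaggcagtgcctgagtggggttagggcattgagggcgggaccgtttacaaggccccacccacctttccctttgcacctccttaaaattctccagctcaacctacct

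In EtOH DMSO organoids the members spanned a wide range of levels. *Gstp1* was the most abundant with a mean of 1249.9 FPKM (SD 22.5, n = 2), followed by *Gstm1* (1196, SD 12.2) and *Gstm3* (1043, SD 10.5). *Gsta1* (659, SD 52.2) and *Gsta4* (401, SD 36.6), whose product prefers the lipid peroxidation aldehyde 4-hydroxynonenal, came next. *Mgst1* (198), *Gsta2* (126), *Gstm2* (79.3), *Gsta3* (66.0) and *Gstt1* (56.1) followed in that order. At each step of this order both libraries of the more abundant gene lay above both libraries of the next, although *Gstp1* exceeded *Gstm1* by little. All 10 members passed the filter on low values, and 3 of them were among the 57 most abundant of the 12702 tested genes by rank (*Gstp1* 42, *Gstm1* 46, *Gstm3* 57).

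**Figure D1:**
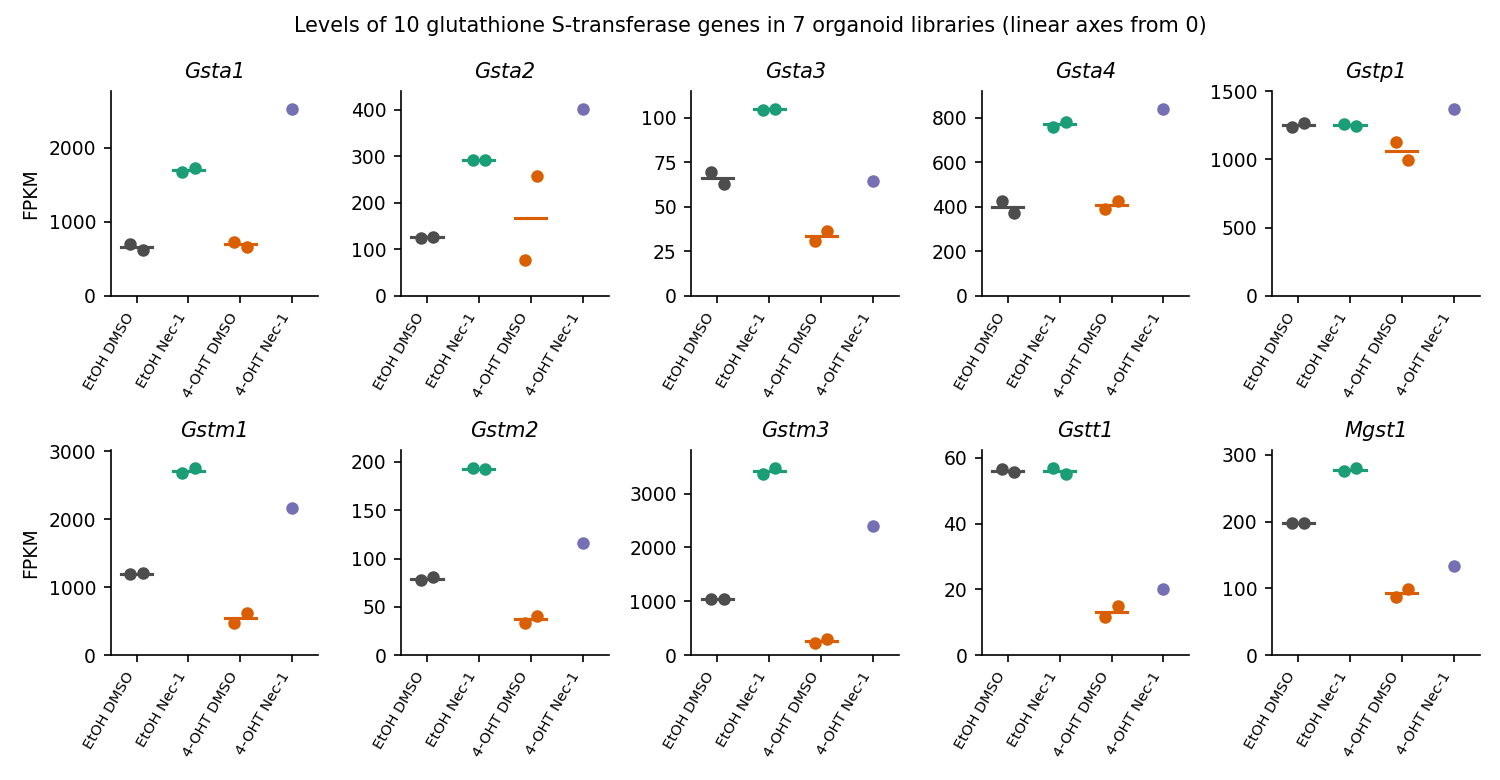
FPKM of the 10 members in each of the 7 libraries, on linear axes that start at 0 and differ between genes. Points are libraries and bars are means of 2 libraries. *Gstm1*, *Gstm2*, *Gstm3*, *Gsta3*, *Gstt1* and *Mgst1* were lower in both 4-OHT DMSO libraries than in both EtOH DMSO libraries, and *Gsta2* was split between the 4-OHT DMSO libraries.

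To learn how the enzymes differed between the libraries labelled 4-OHT and EtOH, the DMSO groups were compared first. These DMSO libraries also entered the choice of the members, which favoured genes that were low with DMSO. The p-values of the members in this comparison are therefore not independent of that choice. The 3 mu members were lower in 4-OHT DMSO. *Gstm3* was at 1036 and 1051 FPKM in EtOH DMSO and at 219 and 309 in 4-OHT DMSO. It fell by 2.00 on the log2 scale (SE 0.17, limma adjusted p = 0.00116), to 0.253 of its level. *Gstm1* was at 1187 and 1204 FPKM in EtOH DMSO and at 479 and 620.3 in 4-OHT DMSO, and *Gstm2* was at 77.5 and 81.1 against 33.8 and 40.7. In all 3 genes the groups did not overlap, with 4-OHT DMSO lower, as in 30.8% of the tested genes. *Gstm1* fell by 1.13 (SE 0.14, limma adjusted p = 0.00307) and *Gstm2* by 1.07 (SE 0.11, limma adjusted p = 0.00164).

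*Gstt1*, whose product conjugates small halogenated compounds, was the member with the lowest ratio between the groups. It went from 56.5 and 55.8 FPKM in EtOH DMSO to 11.6 and 14.9 in 4-OHT DMSO and fell by 2.01 on the log2 scale (SE 0.12, limma adjusted p = 0.000497). *Mgst1* went from 198 and 199 FPKM to 87.3 and 99.0 and fell by 1.08 (SE 0.09, limma adjusted p = 0.000996). *Gsta3* went from 69.3 and 62.7 FPKM to 30.9 and 36.5 and fell by 0.95 (SE 0.11, limma adjusted p = 0.00227). For these genes, too, both 4-OHT DMSO libraries lay below both EtOH DMSO libraries.

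None of the 3 members in the alpha cluster on chromosome 9 passed the threshold. *Gsta1* was at 696 and 622 FPKM in EtOH DMSO and at 732 and 660.5 in 4-OHT DMSO (log2 difference 0.08, SE 0.11, limma adjusted p = 0.584). *Gsta4* was at 427 and 375 against 389.5 and 428 FPKM (0.03, SE 0.10, limma adjusted p = 0.841). For both genes the libraries of the groups overlapped. *Gsta2* was at 124 and 127 FPKM in EtOH DMSO but at 77.4 and 258 in 4-OHT DMSO, and its difference of 0.17 had an SE of 0.52 (limma adjusted p = 0.821). Without 4-OHT DMSO replicate 2 the difference was -0.69 (limma adjusted p = 0.00510), and without replicate 1 it was 1.03 (limma adjusted p = 0.00157), where the remaining library is assumed to vary like those of the other groups. *Gm3776*, which lies in the same cluster, was at 434 and 621 FPKM in these libraries. Values of similar genes are uncertain where fragments could be assigned to more than one of them. With *Gsta1*, *Gsta2*, *Gm3776* and *Gm10639* summed, the cluster stood at 1373 and 1234 FPKM in EtOH DMSO and at 1307 and 1587 in 4-OHT DMSO, and the log2 difference was 0.15 (limma adjusted p = 0.415).

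*Gstp1* was at 1234 and 1266 FPKM in EtOH DMSO and at 1124 and 997 in 4-OHT DMSO. Both 4-OHT DMSO libraries were lower, but the difference of -0.24 (SE 0.10) did not pass the threshold (limma adjusted p = 0.109). It did after each library was centred on its median (-0.40, limma adjusted p = 0.0383) and after upper quartile scaling (-0.41, limma adjusted p = 0.0355). Summed with *Gstp2* and *Gstp3*, it differed by -0.27 (limma adjusted p = 0.0601).

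In all, 6 of the 10 members fell and 0 rose in 4-OHT DMSO. Over all 12702 tested genes 41.2% passed the same threshold, 16.7% as lower and 24.5% as higher. The median difference of the members was -1.01, against 0.08 over all tested genes. *Gstt1* and *Gstm3* had smaller values than all but 0.551% and 0.567% of the tested genes, and the 6 members that fell were all within the lowest 4.72%. This comparison uses the DMSO libraries that also entered the choice of the members, so that it is not independent of that choice.

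**Figure D2:**
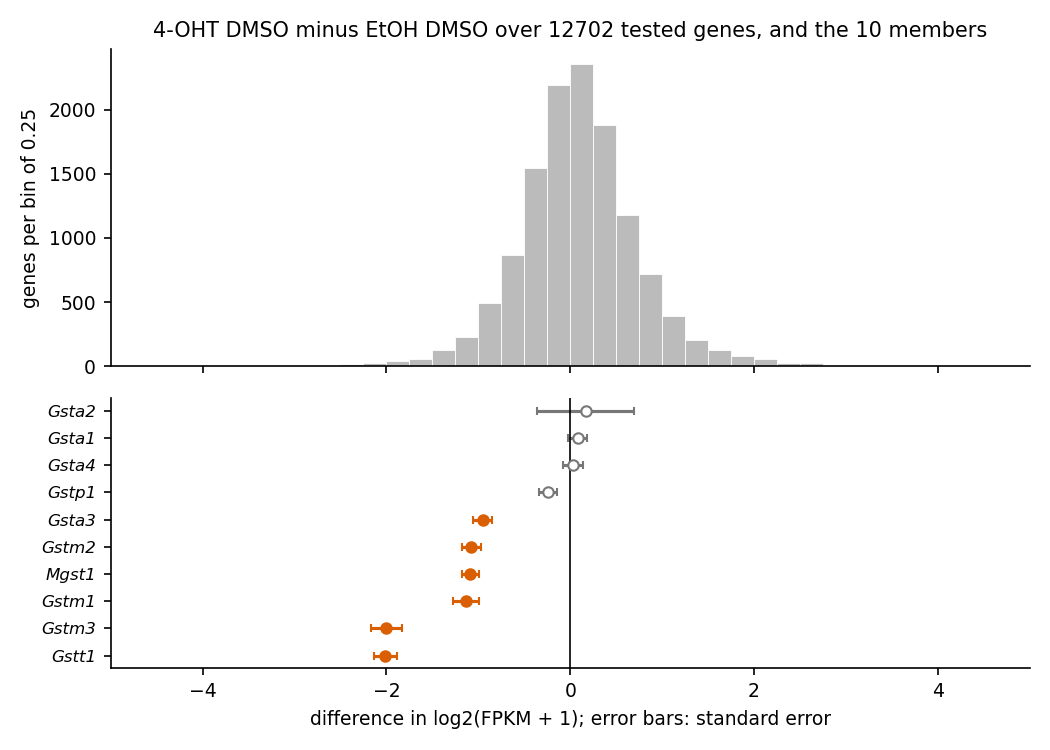
Upper panel, number of genes per bin of the difference in log2(FPKM + 1) between 4-OHT DMSO and EtOH DMSO over the 12702 tested genes. Lower panel, the same difference for the 10 members with its standard error, filled where the limma adjusted p was under 0.05. The 6 filled members lie between -2.01 and -0.95.

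Cell type markers moved in the same comparison, in which 24.5% of the tested genes passed as higher and 16.7% as lower. All 7 Paneth, all 7 goblet and all 6 enteroendocrine markers rose, and the summed FPKM of the Paneth markers was 7624 to 8438 in EtOH DMSO and 20008 to 20599 in 4-OHT DMSO. Goblet markers summed to 1967 to 2160.4 against 3282 to 3837 FPKM, and enteroendocrine markers to 261 to 282 against 530.0 to 596. Of 9 tested enterocyte markers 5 fell and 2 rose, with sums of 1554 to 1605 against 1254 to 1310.2 FPKM. Of 7 stem cell markers 3 fell (*Lgr5*, *Olfm4* and *Smoc2*) and 1 rose (*Cd44*). The defining markers of other cells were low in every library, with sums of at most 0.137 FPKM for 5 fibroblast genes, 2.55 for 5 immune genes and 5.13 for 5 tuft cell genes. The 5 hepatocyte genes, some of which gut epithelium also makes, summed to 13.8 to 24.5 FPKM. The part of the cell type markers in the fall of the glutathione transferases was not tested.

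Nec-1 blocks the kinase RIPK1, and the EtOH groups were compared with and without it. Values of this comparison chose the members. *Gstm3* was at 3363 and 3467 FPKM in EtOH Nec-1, 3.27-fold above EtOH DMSO. *Gsta1* was at 1679 and 1735 FPKM (2.59-fold), and *Gstm1* was at 2679 and 2745 FPKM (2.27-fold). *Gstm2* was at 193 and 192 FPKM (2.43-fold) and *Gsta2* at 291 in both libraries (2.32-fold). These 5 members were higher by at least 1 log2 unit in every pairing of libraries, as were 0.346% of the tested genes. *Gsta4* (760.0 and 784 FPKM, 1.93-fold), *Gsta3* (104 and 105 FPKM, 1.58-fold) and *Mgst1* (275 and 279.6 FPKM, 1.40-fold) were also above both EtOH DMSO libraries.

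*Gstp1* and *Gstt1* were not higher on the deposited scale. *Gstp1* was at 1258 and 1243 FPKM with Nec-1, inside the range of its EtOH DMSO libraries, and *Gstt1* was at 56.8 and 54.9 FPKM. Their log2 differences were 0.00 and -0.01. Altogether 8 of the 10 members had both Nec-1 libraries above both DMSO libraries, a pattern found in 10.5% of the tested genes. After each library was centred on its median all 10 did, as did 22.4% of the tested genes, and after upper quartile scaling all 10 did, as did 20.8%. The median difference of the members was 1.06, against -0.09 over all tested genes. By limma 0.22% of all tested genes passed the threshold in this comparison, 0.173% as higher and 0.0472% as lower. Among the markers 1 of 9 tested enterocyte genes fell, and 0 of the Paneth, goblet, enteroendocrine and stem cell markers passed the threshold. The sum of the enterocyte markers was 1554 to 1605 FPKM in EtOH DMSO and 1260 to 1262 in EtOH Nec-1, and that of the stem cell markers 79.1 to 80.2 against 59.9 in both. All 7 stem cell markers were lower in both Nec-1 libraries, as were 39.1% of the tested genes. Of these stem cell markers 4 had an unadjusted p under 0.05, as did 10.4% of the tested genes as lower. The enterocyte genes *Apoa1*, *Apoa4*, *Fabp1* and *Slc5a1* had one as lower too. The Paneth sum was 7624 to 8438 FPKM in EtOH DMSO and 8955 to 9159 in EtOH Nec-1. The goblet sum was 1967 to 2160.4 against 2198 to 2252, and the enteroendocrine sum 261 to 282 against 299.8 to 321. *Mmp7*, *Ang4*, *Agr2*, *Gcg* and *Neurod1* had an unadjusted p under 0.05 as higher, as did 2.92% of the tested genes. The part of the markers in the differences of the members was not tested.

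In organoids labelled 4-OHT, the only Nec-1 library was above both DMSO libraries for all 10 members, which was the case for 25.5% of the tested genes. With 1 library in the group there is no replicate check. *Gstm3* was at 2393 FPKM, 9.06-fold above the mean of 4-OHT DMSO. *Gstm1* was at 2162 FPKM (3.94-fold), *Gsta1* at 2524 (3.62-fold) and *Gstm2* at 116 (3.11-fold), and these 4 members were higher by at least 1 log2 unit in every pairing, as were 0.756% of the tested genes. *Gsta2* was at 402 FPKM, 2.40-fold above a mean that joins 77.4 and 258. *Gsta4* was at 839.7 FPKM (2.05-fold) and *Gsta3* at 64.2 (1.91-fold). *Gstt1* (20.1 FPKM, 1.52-fold), *Mgst1* (134 FPKM, 1.44-fold) and *Gstp1* (1368 FPKM, 1.29-fold) differed least. The median log2 difference was 1.27, against -0.08 over all tested genes. Marker sums differed in this comparison as well. The Paneth sum was 20008 and 20599 FPKM with DMSO and 15328 with Nec-1, the stem cell sum 87.8 and 66.3 against 49.4, and the gastric sum 7.21 and 110.9 against 1.36. The goblet sum was 3282 and 3837 FPKM with DMSO and 2875 with Nec-1. The enterocyte sum was higher with Nec-1, at 1254 and 1310.2 against 1398 FPKM. The enteroendocrine sum with Nec-1, 573 FPKM, lay between those with DMSO (530.0 and 596). The part of these markers in the differences of the members was not tested.

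Side by side, the log2 difference with Nec-1 was larger in the organoids labelled 4-OHT than in the EtOH organoids for 10 of 10 members, and for 53.1% of the tested genes. The gap was widest for *Gstm3* (3.20 against 1.71), *Gstm1* (1.99 against 1.18) and *Gstt1* (0.58 against -0.01). It was narrowest for *Mgst1* (0.52 against 0.48) and *Gsta4* (1.04 against 0.95). Whether the differences with Nec-1 differ between EtOH and 4-OHT was not tested, since both entered the choice of the members.

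**Figure D3:**
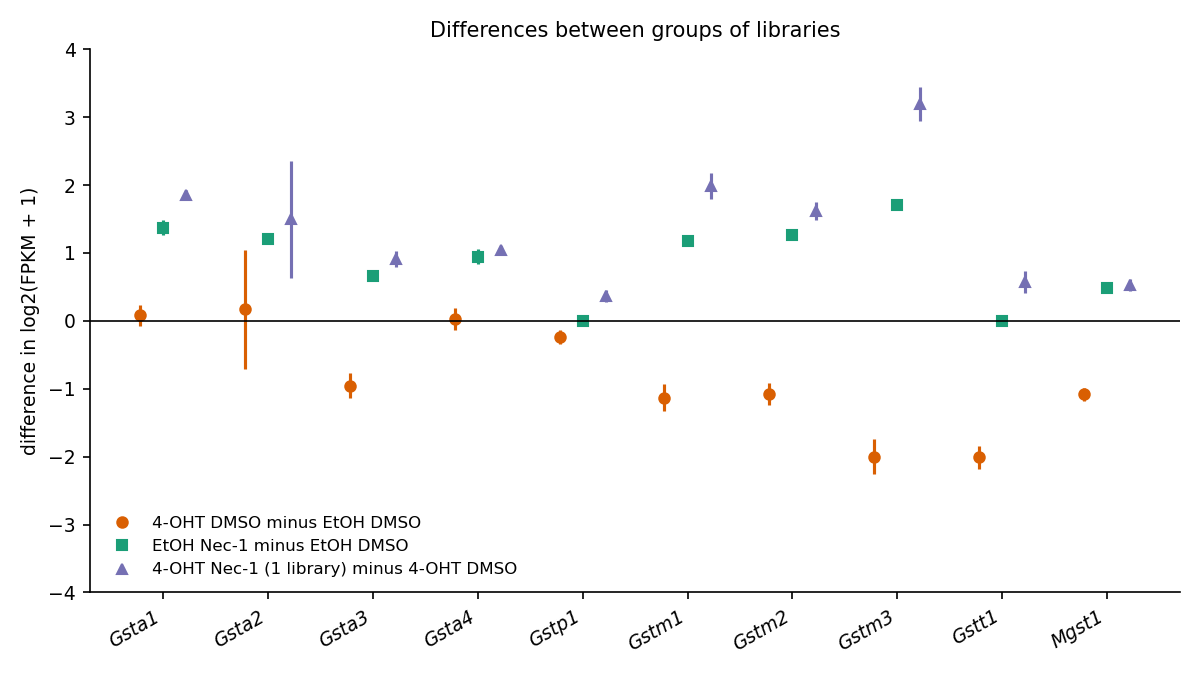
Differences in log2(FPKM + 1) for each member. Circles give 4-OHT DMSO minus EtOH DMSO, squares EtOH Nec-1 minus EtOH DMSO and triangles the 4-OHT Nec-1 library minus 4-OHT DMSO, and vertical lines span all pairings of libraries. *Gstm3* has the highest triangle, at 3.20, and a circle close to that of *Gstt1*, the lowest at -2.01, and *Gsta2* has wide lines wherever 4-OHT DMSO enters.

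The level reached in the 4-OHT Nec-1 library separated the members. Of the 6 that fell in 4-OHT DMSO, *Gstm1*, *Gstm2* and *Gstm3* were above both EtOH DMSO libraries, at 181%, 146% and 229% of the EtOH DMSO mean. *Gsta3* lay between the EtOH DMSO libraries (97.3%). *Gstt1* and *Mgst1* were below both, at 35.8% and 67.6%. Against EtOH Nec-1 all 6 were lower, from *Gstm1* (log2 difference -0.33) to *Gstt1* (-1.43). The other 4 members, *Gsta1*, *Gsta2*, *Gsta4* and *Gstp1*, were above both EtOH Nec-1 libraries, by 0.56, 0.46, 0.12 and 0.13 on the log2 scale. For comparison, 41.3% of the tested genes were above and 43% below both EtOH DMSO libraries in the 4-OHT Nec-1 library. The same shares against EtOH Nec-1 were not counted. The median log2 difference from EtOH Nec-1 over all tested genes was 0.08, close to the values of *Gsta4* and *Gstp1*.

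Summed over all 29 measured glutathione transferase genes, expression was 6753 and 6590.5 FPKM in EtOH DMSO, and 13286.5 and 13533 with Nec-1. Among the libraries labelled 4-OHT it was 4313 and 4984 with DMSO and 12829 with Nec-1. The sum made up 1.42% and 1.46% of all FPKM in EtOH DMSO and 0.885% and 1.02% in 4-OHT DMSO. With Nec-1 it made up 2.66% and 2.76% in EtOH organoids and 2.58% in the 4-OHT library. The 10 members supplied between 69.5% and 80.5% of it. The composition shifted with the groups. The mu class held 36.9% and 38.1% of the sum in EtOH DMSO and 18.3% and 21.0% in 4-OHT DMSO. With Nec-1 its share was 48.8% and 49.3% in EtOH organoids and 37.7% in the 4-OHT library. The alpha class held 27.7% and 25.4% in EtOH DMSO and 40.1% and 41.2% in 4-OHT DMSO, and its share was 44.3% in the 4-OHT Nec-1 library. The pi class held 12.2% to 13.0% in the Nec-1 libraries and 23.9% to 31.0% in the DMSO libraries, while its own sum stayed between 1337 and 1679.8 FPKM.

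**Figure D4:**
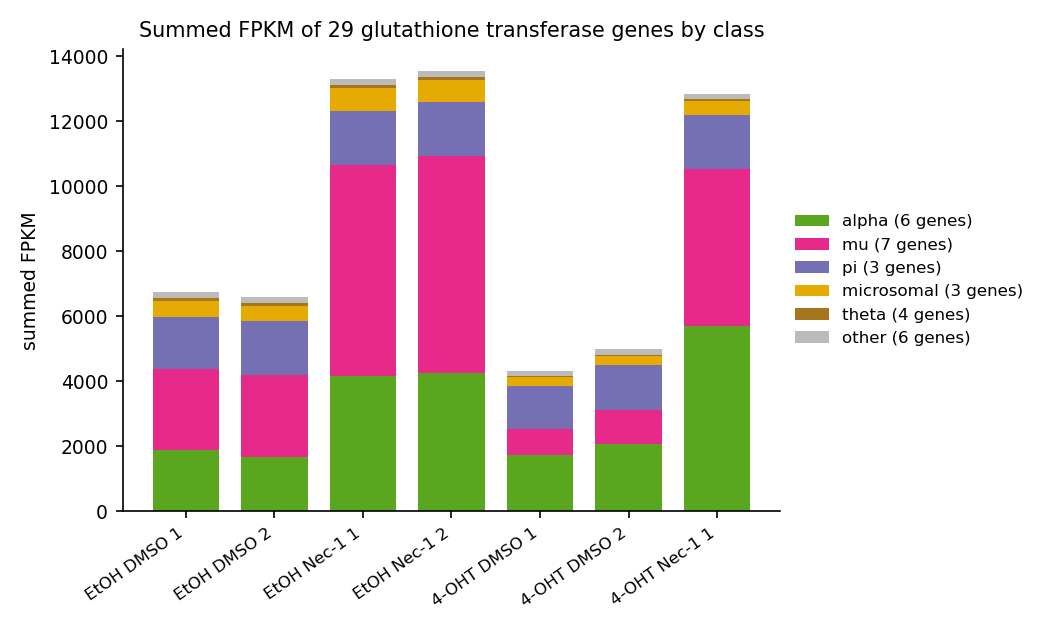
Summed FPKM of 29 glutathione transferase genes in each of the 7 libraries, stacked by class from 0. The mu class went from 2489 and 2510.4 FPKM in EtOH DMSO to 791 and 1046 in 4-OHT DMSO, and the alpha class was at 5681 FPKM in 4-OHT Nec-1.

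The glutathione transferase genes outside the 10 members were examined next, 16 of which passed the filter. Of these 8 fell and 0 rose in 4-OHT DMSO, again against 16.7% lower and 24.5% higher over all tested genes. The mu genes *Gstm7* (log2 difference -1.84, limma adjusted p = 0.000449), *Gstm4* (-1.77, limma adjusted p = 0.00143) and *Gstm6* (-1.51, limma adjusted p = 0.00203) fell as their neighbours did. *Gstm4* was at 77.8 and 79.0 FPKM in EtOH DMSO and at 18.6 and 26.7 in 4-OHT DMSO. With Nec-1 it was at 131 and 138 FPKM in EtOH organoids and at 89.7 in the 4-OHT library. *Gstm5*, a neighbour in the cluster, was at 38.6 and 27.8 against 21.7 and 24.1 FPKM in the DMSO groups (-0.50, limma adjusted p = 0.0551). The 3 smaller falls among class neighbours were those of *Gstp3* (-0.89), *Gstt3* (-0.76) and *Gstt2* (-0.55), with limma adjusted p of 0.00135, 0.00286 and 0.00736. The membrane enzymes *Mgst3* (-0.68, limma adjusted p = 0.00407) and *Mgst2* (-0.54, limma adjusted p = 0.0230), which can act in leukotriene synthesis, fell as well. Without EtOH DMSO replicate 1 or 4-OHT DMSO replicate 2, the fall of *Mgst2* missed the threshold (limma adjusted p = 0.101 and 0.0623).

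With Nec-1 in EtOH organoids, 9 of the 16 genes had both libraries above both DMSO libraries and 5 had both below, against 10.5% and 39.1% of the tested genes. *Gm10639* (log2 difference 1.41) and *Gm3776* (1.35, at 1146 and 1156 FPKM) were close to *Gsta1*. Fragments of these similar genes could be assigned to more than one of them. Summed with *Gsta1* and *Gsta2*, they stood 2.55-fold above EtOH DMSO. *Gstm4* (0.77), *Mgst2* (0.67) and *Mgst3* (0.54) were also higher, whereas *Gstp3* was lower (-0.39). *Gstm7* (0.25) and *Gstm6* (0.37) had smaller differences than *Gstm1*, *Gstm2* and *Gstm3* of the same cluster. In the 4-OHT Nec-1 library 10 of the 16 were above both 4-OHT DMSO libraries and 2 below, against 25.5% and 49.3% of the tested genes. The summed alpha genes stood 3.30-fold above the mean of 4-OHT DMSO there. *Gstp2*, at 335 and 357 FPKM in EtOH DMSO, was split at 191 and 365 FPKM between the 4-OHT DMSO replicates. *Gsto1*, an omega class enzyme with thiol transferase activity, lay between 144 and 166 FPKM in all libraries. *Gstz1* (3.52 to 9.40 FPKM), *Gstk1* (7.17 to 12.6) and *Gstcd* (2.72 to 4.13) did not pass the threshold in 4-OHT DMSO.

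The supply of glutathione was described through 10 genes for its synthesis, cystine uptake and reduction, 9 of which were tested. In 4-OHT DMSO 3 fell and 2 rose, against 16.7% lower and 24.5% higher over all tested genes. *Gclc*, the catalytic subunit of the enzyme that limits glutathione synthesis, went from 104 and 116 FPKM to 48.1 and 58.9 (log2 difference -1.03, limma adjusted p = 0.00268). *Gsr*, glutathione reductase, fell by 0.56 (limma adjusted p = 0.00702), and *Cth*, which makes cysteine, fell by 1.41 (limma adjusted p = 0.000573). *Pgd*, an NADPH source, rose by 0.78 (limma adjusted p = 0.00133), as did the cystine carrier *Slc7a11* by 0.49 (limma adjusted p = 0.0186). With Nec-1 in EtOH organoids 0 of the 9 passed the limma threshold, 7 had an unadjusted p under 0.05, and all 7 were higher. Over all tested genes 13.3% had such a p, 2.92% as higher and 10.4% as lower. *Gclc* was at 175 and 181 FPKM and *Slc7a11* at 6.88 in both libraries, against 2.69 and 3.20 in EtOH DMSO. Without 4-OHT DMSO replicate 1, or without replicate 2, 1 gene passed. In the 4-OHT Nec-1 library *Gclc* was at 152 FPKM and *Slc7a11* at 11.6.

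Of 15 tested genes for export and breakdown of the conjugates, 5 fell and 3 rose in 4-OHT DMSO. Over all tested genes 16.7% passed as lower and 24.5% as higher. *Ggt1*, the gamma-glutamyl transferase that takes the first residue off a conjugate, went from 14.5 and 15.0 FPKM to 5.54 and 5.76 (log2 difference -1.25, limma adjusted p = 0.000506). The apical conjugate pump *Abcc2* went from 26.6 and 33.8 to 18.1 and 18.5 FPKM (-0.68, limma adjusted p = 0.00918). The peptidase *Dpep1* (-0.48) and the acylase *Acy3* (-0.42) fell less, with limma adjusted p of 0.00994 and 0.0421. The aminopeptidase *Anpep* (1.08), the pump *Abcc4* (1.01) and the glutathione-degrading *Chac2* (0.95) rose, with limma adjusted p of 0.00426, 0.00641 and 0.00288. With Nec-1 in EtOH organoids 0 of the 15 passed and 6 had an unadjusted p under 0.05, 5 as higher and 1 as lower (*Chac1*, log2 difference -0.39). Over all tested genes 2.92% had such a p as higher and 10.4% as lower. *Abcc2* was at 54.1 and 54.0 FPKM in EtOH Nec-1 and at 81.7 in 4-OHT Nec-1.

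A list of 24 NRF2 target genes without any glutathione transferase shares 5 genes with the supply list and 2 with the export list. Of 23 tested, 11 fell and 3 rose in 4-OHT DMSO, against 16.7% lower and 24.5% higher over all tested genes. The median of the list was -0.29. Without EtOH DMSO replicate 1 the number past the threshold was 9 in place of 14. *Ephx1*, microsomal epoxide hydrolase, went from 188 FPKM in both EtOH DMSO libraries to 38.6 and 49.6 (log2 difference -2.08, limma adjusted p = 0.000497). *Nqo1*, a quinone reductase, went from 176 and 180 to 58.3 and 67.6 FPKM (-1.49, limma adjusted p = 0.000544), and *Tkt*, transketolase, fell by 0.96 (limma adjusted p = 0.00144). The genes that rose were *Abcc4*, *Pgd* and *Slc7a11*. *Hmox1*, *Srxn1* and *Txnrd1*, 3 widely used readouts of NRF2, had differences of 0.01, 0.06 and -0.21 that did not pass. With Nec-1 in EtOH organoids 0 of the 23 passed and 14 had an unadjusted p under 0.05, all of them higher, against 2.92% of the tested genes. Of these 14, 5 are also in the supply count and 1 is in the export count. *Nqo1* was at 322 and 318 FPKM (0.84, limma adjusted p = 0.0603). *Hmox1* was lower with Nec-1, at 12.5 and 12.7 FPKM against 13.9 and 15.7 in EtOH DMSO (-0.21, limma adjusted p = 0.403). The libraries of *Txnrd1* overlapped between the groups (0.22), and *Srxn1* was higher (0.62, limma adjusted p = 0.152). Without either of the 4-OHT DMSO replicates, 3 genes passed.

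**Figure D5:**
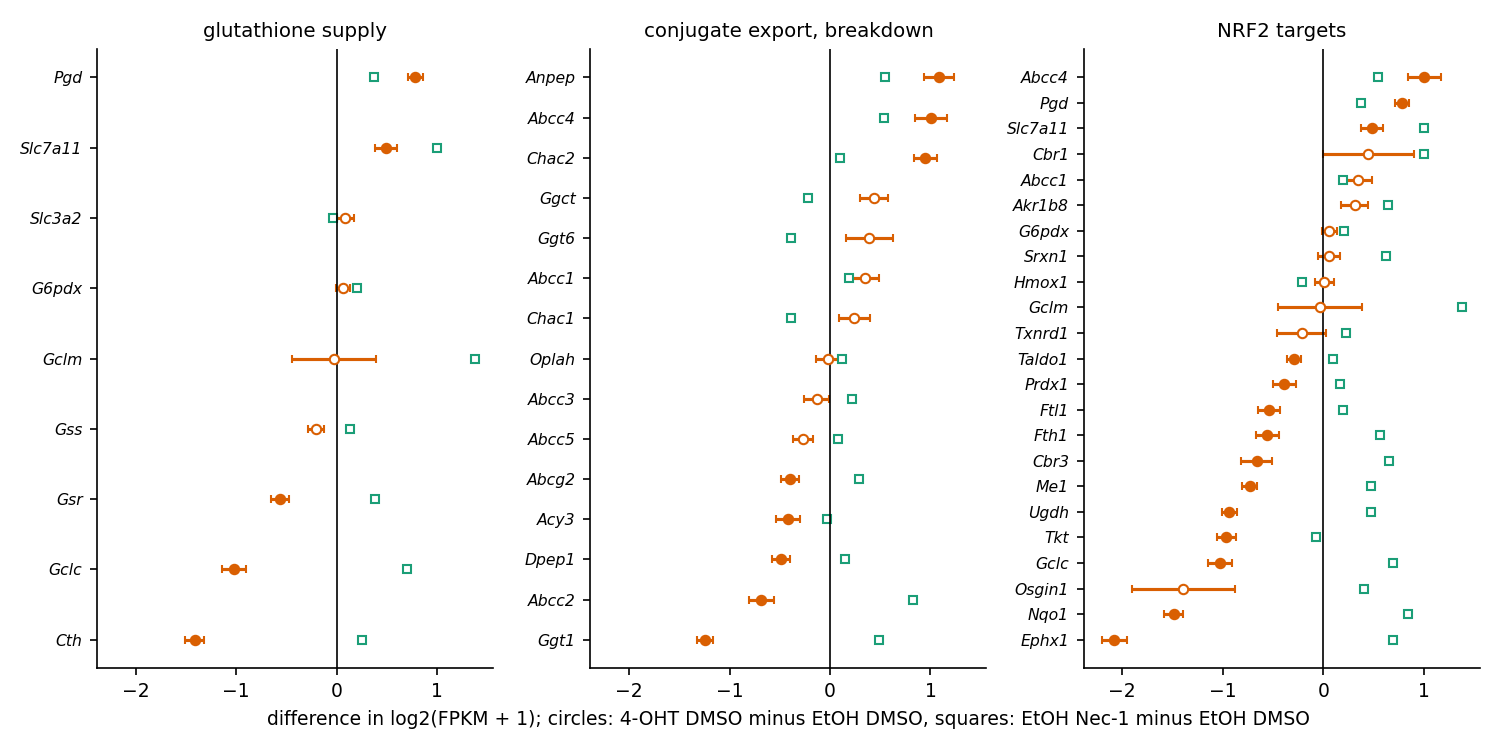
Differences in log2(FPKM + 1) for tested genes of glutathione supply, of export and breakdown of conjugates, and of the NRF2 target list. Circles give 4-OHT DMSO minus EtOH DMSO with its standard error, filled where the limma adjusted p was under 0.05, and squares give EtOH Nec-1 minus EtOH DMSO. *Ephx1* (-2.08) is the lowest circle, and *Gclm* (1.38, from 69.0 and 31.1 FPKM) is the rightmost square and has libraries that differ widely.

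Of 13 regulators known to act on these genes, 3 rose and 1 fell in 4-OHT DMSO. Over all tested genes 24.5% passed as higher and 16.7% as lower. *Nr1i3*, which encodes the xenobiotic receptor CAR, went from 21.3 and 23.1 FPKM to 3.26 and 3.59 (log2 difference -2.39, limma adjusted p = 0.000256). It was at 22.6 and 23.2 FPKM in EtOH Nec-1 and at 7.68 in 4-OHT Nec-1. *Nfe2l2*, which encodes NRF2, rose by 0.34 (limma adjusted p = 0.0220), and its small MAF partners *Maff* (1.05) and *Mafk* (0.94) rose with limma adjusted p of 0.0205 and 0.00117. The NRF2 inhibitor *Keap1* (0.15), *Nr1i2* (0.09), which encodes PXR, and *Ahr* (0.27) did not pass the threshold. With Nec-1 in EtOH organoids 0 of the 13 passed and 1 had an unadjusted p under 0.05, as lower, against 10.4% of the tested genes. The AhR target *Cyp1a1*, at 0.0180 and 0.0610 FPKM in EtOH DMSO, was at 57.4 and 56.0 in EtOH Nec-1 (5.80, limma adjusted p = 9.25e-05) and at 170 in 4-OHT Nec-1. Of the other AhR targets listed, *Nqo1*, also in the NRF2 list, is given above. *Tiparp* (0.12, limma adjusted p = 0.638) and *Ugt1a6a* (0.77, limma adjusted p = 0.404) did not pass the threshold in EtOH Nec-1. *Ahrr*, *Cyp1a2*, *Cyp1b1* and *Aldh3a1* were above both EtOH DMSO libraries there, but at 0.259 FPKM or less. In the only 4-OHT Nec-1 library *Ahrr* was at 1.26 FPKM, *Cyp1b1* at 1.88 and *Cyp1a2* at 0.806. Both 4-OHT DMSO libraries held 0.103 FPKM or less of each of these genes. *Tiparp* (14.7 FPKM), *Ugt1a6a* (35.7) and *Nqo1* (220) were also above both 4-OHT DMSO libraries, whereas *Aldh3a1* (0.0264) lay between them. These differences in the 4-OHT arm were not tested.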

How the data were processed

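The authors sequenced RNA of *Vil-CreERT2*;*Mettl3* fl/fl organoids in 7 libraries and deposited FPKM, with 1 value per Ensembl gene and library. HISAT2 2.1.0, StringTie 1.3.3b and the mm10 build are named in the submitters' processing notes, without their order. Columns that could not be mapped to a sample numbered 0. The 2 Atf3 CUT&Tag samples were not analysed here. FPKM summed to 450207 to 498712 per library. Fragment counts are unknown, and the spacing of the lowest values put the depths at 0.853 to 1.04 times that of EtOH DMSO replicate 1, so that no counting interval can be given.

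limma 3.58.1 (R 4.3.3) with a mean-variance trend was fitted to log2(FPKM + 1) of the 12702 genes that reached 1 FPKM in 2 or more libraries. Each of the 4 groups had a mean of its own, and 3 degrees of freedom remained for the residual spread over the 7 libraries. The Benjamini-Hochberg adjustment ran over all tested genes, with a threshold of 0.05. The fit was also run on simulated data with normal noise and few changed genes. In 4-OHT DMSO 41.2% of the tested genes passed, so that the simulation does not check that setting. Nec-1 against DMSO was described without a test for glutathione transferases, because it chose the members, and for all genes in the 4-OHT arm, which has 1 Nec-1 library. The other tables were made with Python 3.11.15, numpy 2.4.6, pandas 2.3.3 and matplotlib 3.10.9.

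The members and all gene lists were chosen with earlier results of these data known. The genes named are the 10 members, other glutathione transferases with a mean of at least 1 FPKM, up to 4 rises and 4 falls per list past the threshold, *Mettl3*, the regulators and *Cyp1a1*. The gastric marker sum, *Hmox1*, *Srxn1*, *Txnrd1*, *Gclm*, *Gss*, *Chac1* and the stem cell markers named were added after their values were seen, as was the summing of near-identical genes. The same holds for *Tiparp*, *Ugt1a6a*, *Ahrr*, *Cyp1a2*, *Cyp1b1* and *Aldh3a1*, and for the Paneth, goblet, enteroendocrine and enterocyte markers named. Marker lists covered enterocytes, Paneth, goblet, stem, enteroendocrine, tuft, fibroblast, immune, gastric and hepatocyte genes. Alternatives were pseudocounts of 0.1 and 0.25, no filter, 1 FPKM in every library, median centring, upper quartile scaling, limma without the trend, the 4 libraries of a comparison alone, the replicate number as a block, and each library left out.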

Additional observations from a re-analysis of the deposited data

Results flagged for a closer look

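With Nec-1 some genes lay on opposite sides of zero in EtOH organoids and in organoids labelled 4-OHT, where the only Nec-1 library is set against 2 DMSO libraries. The log2 difference of *Gstt2* was -0.106 in EtOH organoids and 0.171 in those labelled 4-OHT, and that of *Gstt3* was -0.121 and 0.288. *Gss*, glutathione synthetase, differed by 0.129 and by -0.0780. These differences between the arms were not tested. After each library was centred on its median, the values were -0.00701 and 0.285 for *Gstt2*, -0.0223 and 0.402 for *Gstt3*, and 0.228 and 0.0364 for *Gss*.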

How the results depend on the processing

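The members past the threshold in 4-OHT DMSO numbered 6, and 6 or 7 under the alternatives run. *Gsta2*, at 0.17, reversed to -0.69 without 4-OHT DMSO replicate 2 and was at 1.03 without replicate 1. Median centring and upper quartile scaling moved the median difference of the members from -1.01 to -1.17 and -1.18 in 4-OHT DMSO and from 1.06 to 1.16 and 1.17 in EtOH Nec-1. Over all genes, centring moved the median difference in 4-OHT DMSO from 0.08 to -0.08 and turned 3117 higher and 2120 lower calls into 2213 and 3187. With Nec-1 in EtOH organoids, the supply genes past the threshold numbered 0, then 1 after centring, 1 after upper quartile scaling, 2 with the 4 libraries alone, and 0 to 1 with a library left out. The NRF2 targets numbered 0, then 1, 2, 4 and 0 to 3 in the same order. In 4-OHT DMSO they numbered 14, and 9 to 15 with a library left out. Calls over all genes in EtOH Nec-1 numbered 28, and 8 without a filter, 87 with the 4 libraries alone and 9 to 79 with a library left out. Same-numbered replicates did not deviate together (correlations of -0.0402, 0.0065 and -0.0120), so no pairing by number was seen. Whether the numbers pair them remains unknown, since the labels do not say how the replicates were made. With the replicate number as a block, 6 members again passed in 4-OHT DMSO, and calls over all genes went from 5237 to 4697 and, in EtOH Nec-1, from 28 to 19. Leaving out 4-OHT Nec-1 removes its comparison. Fragment counts were not used here, so that the limits set by depth are not known.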
